A study of Mus musculus with 3 samples.

Results

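The 34 histone genes described here are the rows, among the 16610 genes of the deposited table, whose symbol begins with Hist1h to Hist4h, H2af or H3f or is H1f0 or H1fx. By symbol they fall into 20 clustered genes, named for a histone gene cluster, 11 variant genes and 3 testis genes (Hist1h2aa, Hist1h2ba and H2afb1). Values come from 3 libraries of mouse brain, each a pool of 3 animals killed after 3 days, with 2 technical replicates per the series design. The control library is the right hemisphere of animals that had no middle cerebral artery occlusion (MCAO, a stroke model in which a brain artery is blocked). The contralateral library is the right hemisphere, and the occluded library the left hemisphere, of animals with MCAO for 1 h. All 3 went through a RiboTag pull-down of the middle section of the hemisphere, which precipitates a tagged ribosomal protein of chosen cells together with the RNA it holds. The series title names astrocytes. The driver line, strain, sex and age are not given in the sources used here.

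Histones are the proteins around which DNA is wound. H2A, H2B, H3 and H4 form the core of the nucleosome, and H1 binds the DNA between nucleosomes. Most genes of the clusters are replication histones: they are transcribed while DNA is copied, and their mRNA typically ends in a stem-loop rather than a poly(A) tail. Variant histones such as H2A.Z, H3.3 and macroH2A are made throughout the cell cycle from polyadenylated mRNA and are the main supply in cells that no longer divide. During sperm formation, testis histones are built in before transition proteins and protamines pack the DNA. The labels do not state whether poly(A) RNA was selected, so the value of a clustered gene may not measure all of its mRNA. In bulk libraries, fewer cells of a type and less RNA per cell cannot be told apart.

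Each group had 1 library, so no difference could be set against a spread between replicates, and none was tested. Sets of 3 values in a row are given throughout in the order control, contralateral, occluded, as normalised read counts. The recovered depth was 31833456, 33886604 and 25930258 reads, of which the 34 genes held 0.0707%, 0.0913% and 0.0884%. Ratios carry 95% Clopper-Pearson intervals from the recovered reads, which cover counting error only. The occluded library is the 1 left hemisphere, so side of the brain cannot be told apart from occlusion in its comparison with either the control or the contralateral library. Astrocyte and neuron markers both held many reads, with medians of 9385 over 10 astrocyte and 16833 over 8 neuron markers in the control, and the astrocyte gene Gfap had 5903, 12202 and 76049. The 9 microglia markers summed to 9419, 9388 and 26900. All 9 were higher in the occluded than in the control library, and none was listed at 1, the lowest value the table gives. The 8 male germ cell markers summed to 140, 8286 and 133, with Tnp2 and Crisp2 listed at 1 in the control. The part of either marker group in the histone results was not tested.

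**Figure D1:**
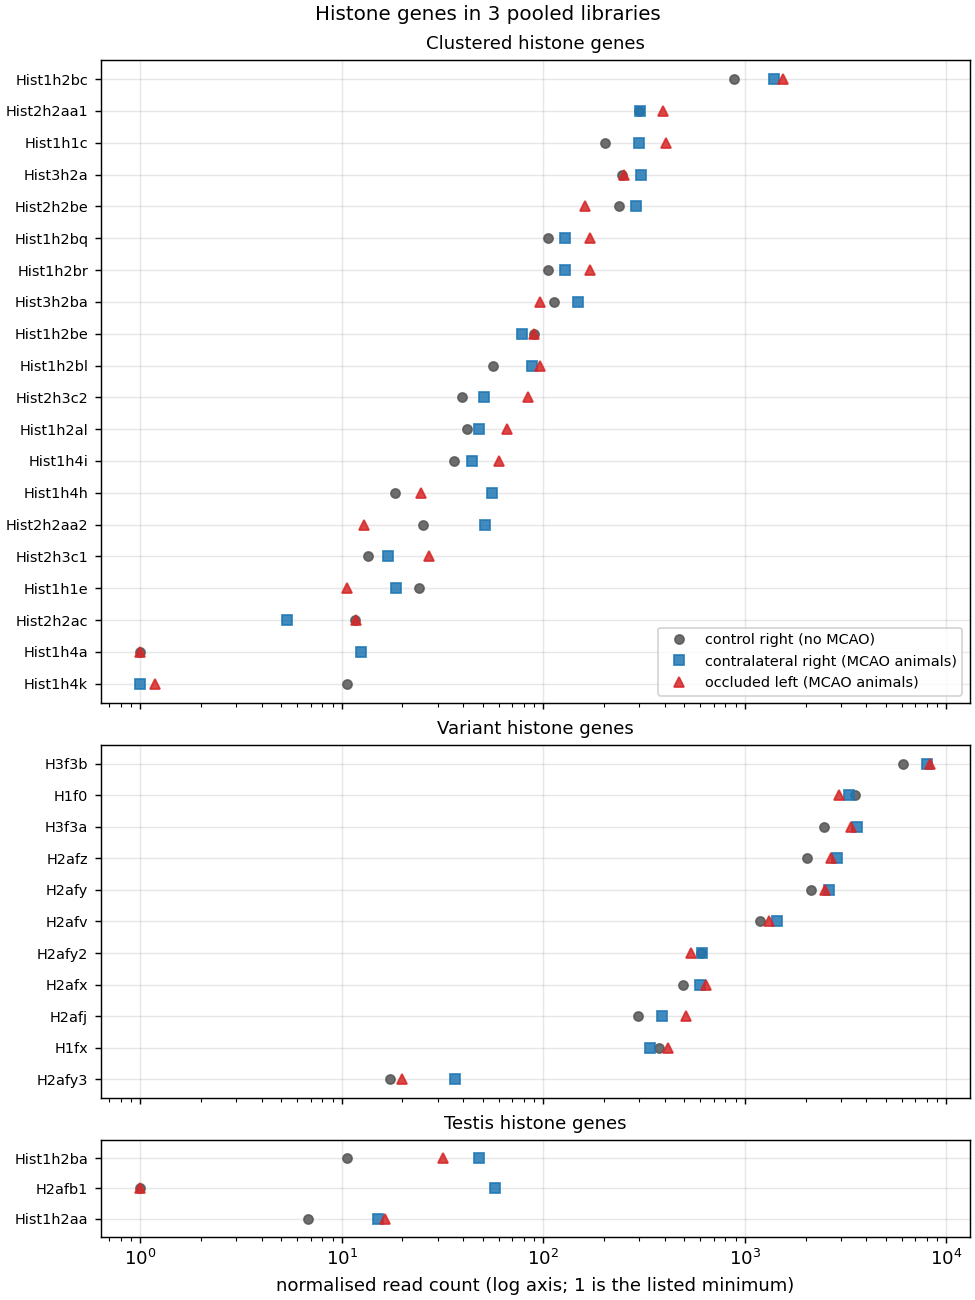
Normalised read counts (x axis, log scale) of the 34 histone genes (rows, in 3 panels by class) in the control (circles), contralateral (squares) and occluded (triangles) libraries, 1 point per library. Counts are not corrected for gene length. Hist1h2bc has the most reads of the clustered genes and H3f3b of the variant genes in every library, and H2afb1 and Hist1h4a are above 1 in the contralateral library alone.

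RefSeq promoter sequences (build GRCm38.p6) were matched for 28 of the 34 genes. Printed here are the 150 bases before an annotated start, 5′ to 3′ on the gene's strand, for genes that the results turn on. Capitals mark matches on either strand to CCAAT, to TATAAA or to the octamer ATTTGCAT, all known from histone promoters. None of these motifs contains another. Hist1h2aa and Hist1h2ba encode the testis histones TH2A and TH2B and start back to back, with 280 bases between their starts. They are shown because both had more reads in either library of the MCAO animals than in the control.
Hist1h2aa: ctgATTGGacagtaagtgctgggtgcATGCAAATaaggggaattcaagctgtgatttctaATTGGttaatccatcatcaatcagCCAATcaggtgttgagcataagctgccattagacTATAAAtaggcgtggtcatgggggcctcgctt
Hist1h2ba: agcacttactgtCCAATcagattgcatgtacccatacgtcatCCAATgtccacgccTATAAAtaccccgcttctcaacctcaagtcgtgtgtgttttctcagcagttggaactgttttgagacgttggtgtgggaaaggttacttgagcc
The first lies at chr13:23934287-23934436 on the plus strand and the second at chr13:23934157-23934306 on the minus strand. Hist1h1c and Hist1h1e, the linker histones H1.2 and H1.4, are shown because their values moved in opposite directions in the occluded library.
Hist1h1c: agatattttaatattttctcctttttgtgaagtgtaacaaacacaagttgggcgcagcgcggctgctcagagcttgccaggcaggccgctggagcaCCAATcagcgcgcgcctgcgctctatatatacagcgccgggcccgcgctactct
Hist1h1e: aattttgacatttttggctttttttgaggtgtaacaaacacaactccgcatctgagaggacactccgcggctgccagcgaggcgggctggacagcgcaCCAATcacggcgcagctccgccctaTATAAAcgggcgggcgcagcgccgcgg
They lie at chr13:23738657-23738806 (plus) and chr13:23622559-23622708 (minus). Hist1h2bq and Hist1h2br had the same value in every library, and their promoter sequences were identical at 300 of 300 bases, so 1 sequence stands for both.
Hist1h2bq: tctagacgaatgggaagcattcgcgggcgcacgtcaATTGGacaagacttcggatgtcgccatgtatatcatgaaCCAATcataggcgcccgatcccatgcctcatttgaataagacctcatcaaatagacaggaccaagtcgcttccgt
It lies at chr13:21810200-21810349 on the minus strand, and its copy before Hist1h2br at chr13:21833593-21833742 on the plus strand. Hist1h4h had the largest contralateral difference of the clustered genes past the filter, and H3f3b held the most reads of the variant genes.
Hist1h4h: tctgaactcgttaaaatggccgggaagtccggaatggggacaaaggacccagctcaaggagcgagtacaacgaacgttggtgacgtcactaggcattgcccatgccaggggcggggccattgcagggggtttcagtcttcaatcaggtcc
H3f3b: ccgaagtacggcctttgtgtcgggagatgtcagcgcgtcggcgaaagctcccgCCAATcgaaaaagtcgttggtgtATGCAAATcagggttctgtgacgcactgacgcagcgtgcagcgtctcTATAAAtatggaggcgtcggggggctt
These lie at chr13:23530894-23531043 (plus) and chr11:116024505-116024654 (minus). The H3f3b window precedes an annotated start that lies inside the full span of the gene, and the Hist1h4h window holds none of the 3 motifs. Over the 250 bases before the start, CCAAT was found in 12 of 17 clustered, 5 of 9 variant and 2 of 2 testis genes, against 33.8% of all 32851 promoters in the RefSeq table. All 6 H2B genes with a sequence held it, Hist1h2ba included. TATAAA was found in 5 of 17, 1 of 9 and 2 of 2, against 12.4%, and the octamer in 3 of 17, 1 of 9 and 2 of 2, against 1.60%. The windows of the testis pair overlap, so their matches are not independent, and a match describes the letters only.

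Most clustered genes were somewhat higher in the occluded hemisphere than in the control, led by Hist1h1c, Hist2h3c2 and Hist1h2bc. Differences were taken as log2(normalised count + 5), a scale that understates those of low genes, and were counted at 2-fold for genes averaging 20 or more across the libraries. This filter kept 14906 genes, among them 27 of the 34 and 15 of the 20 clustered genes. Of the 14906, 4.12% were counted as higher and 1.25% as lower in the occluded library against the control. None of the 15 clustered genes was counted either way. Above 0 lay 11 of them, beside 7278 of the 14906, and 8 reached 0.5, as did 11.5% of all genes. Their median difference was 0.60, where that of all genes was 0.00. The median of the filtered genes was 0.50 with the identical rows counted once. Over all 20 clustered rows, with no filter, it was 0.37.

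The clustered genes, identical rows counted once, summed to 2451, 3337 and 3507, so both libraries of the MCAO animals were above the control. The ratio of occluded to control was 1.43 (1.36 to 1.51), and 1.25 (1.17 to 1.34) when Hist1h2bc was left out. By family, with Hist1h2bc included, the ratio was 1.84 for H1, 1.18 for H2A, 1.46 for H2B, 2.08 for H3 and 1.32 for H4. Hist1h2bc alone gave 879, 1397 and 1543 of the H2B sums of 1482, 2128 and 2157. The H4 interval, 0.937 to 1.87, included 1. Microglia markers, as given above, were higher in the same library.

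The linker histone gene Hist1h1c (chromosome 13, 23738807 to 23739531) lay at the 2-fold line. It had 203, 297 and 408 normalised counts, lowest in the control and highest in the occluded library. The difference from the control was 0.99 on the log2 scale, and the ratio without the added 5 was 2.01 (1.69 to 2.39). With a pseudocount of 1 or either other scaling it was counted as higher. The other linker histone gene of the clusters, Hist1h1e, was low and went the other way with 24.2, 18.6 and 10.6. Its ratio of occluded to control was 0.437 (0.180 to 0.968), and its mean lay under the filter.

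Hist1h2bc (chromosome 13, 23684199 to 23692480), an H2B gene, held more reads than any other clustered gene: 35.9%, 41.9% and 44.0% of the clustered reads. It had 879, 1397 and 1543 normalised counts. Both libraries of the MCAO animals thus stood above the control, with ratios of 1.59 (1.46 to 1.73) for the contralateral and 1.75 (1.61 to 1.91) for the occluded one. Against each other these 2 gave 1.11 (1.03 to 1.19). Hist1h2bl, another H2B gene, followed the same order with 56.2, 87.8 and 96.5. Hist1h2bq and Hist1h2br both had 106, 129 and 171, and such identical rows cannot be assigned to one copy. Hist1h2be did not follow, with 90.1, 78.1 and 89.4 and an occluded to control ratio of 0.993 (0.723 to 1.36).

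A pair of H2B genes outside cluster 1 had their lowest value in the occluded library. Hist2h2be (chromosome 3, 96221072 to 96223738) had 238, 288 and 161 normalised counts. The occluded library was 1.48-fold under the control (1.19 to 1.84) and 1.79-fold under the contralateral one (1.46 to 2.20). Hist3h2ba had 112, 148 and 96.5, which put the occluded library 1.54-fold under the contralateral one (1.17 to 2.03), while the interval against the control included 1. The 7 H2B rows therefore spread from -0.55 to 0.81 in their difference of occluded from control. By cluster, the 9 genes of cluster 1 past the filter had a median of 0.67, the 4 of cluster 2 one of -0.08 and the 2 of cluster 3 one of -0.09. Without the filter the median was 0.64 over the 12 rows of cluster 1 and 0.20 over the 6 of cluster 2. The sign for cluster 2 thus depended on the filter.

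The clustered H3 genes, both of cluster 2, were highest in the occluded library. Hist2h3c2 had 39.7, 50.6 and 83.5 normalised counts, a difference of 0.99 from the control and a ratio of 2.10 (1.41 to 3.17). It too was counted as higher with a pseudocount of 1 and with upper-quartile scaling. Its near copy Hist2h3c1 had 13.6, 16.9 and 27.1. How reads were split between such copies is not known, and their sum of 53.3, 67.4 and 111 had an occluded to control ratio of 2.08 (1.47 to 2.95). The H2A copies Hist2h2aa1 and Hist2h2aa2 parted: the first had 298, 302 and 392 and the second 25.2, 51.5 and 12.9. Their sum of 323, 353 and 405 was highest in the occluded library, with a ratio of 1.25 (1.07 to 1.46), and reads may have been exchanged between these rows, which was not tested.

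The remaining clustered genes were low or nearly level. Hist1h4i, an H4 gene, had 35.8, 44.4 and 59.99 normalised counts, and Hist1h2al, which RefSeq lists as a transcribed pseudogene, had 41.6, 47.9 and 65.9. Hist1h2al (chromosome 13, 51200084 to 51203066) lies apart from the other Hist1h genes and counts as cluster 1 by its symbol only. The H2A gene Hist3h2a had 246, 306 and 252, with its highest value in the contralateral library. Hist2h2ac, another H2A gene, had 11.6, 5.32 and 11.8. In RefSeq 6 of the 20 clustered rows span over 1000 bases, longer than a typical replication histone gene: Hist1h2bc, Hist1h2be, Hist1h2bq, Hist1h2br, Hist1h2al and Hist2h2be. Identical rows counted once, these had an occluded to control ratio of 1.498 (1.40 to 1.61), from sums of 1355, 1940 and 2030. Hist1h2bc alone gave 879, 1397 and 1543 of these sums, so the ratio rests largely on that 1 gene. The other 14 had 1.35 (1.24 to 1.46), from 1096, 1398 and 1477, and the intervals overlapped.

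**Figure D2:**
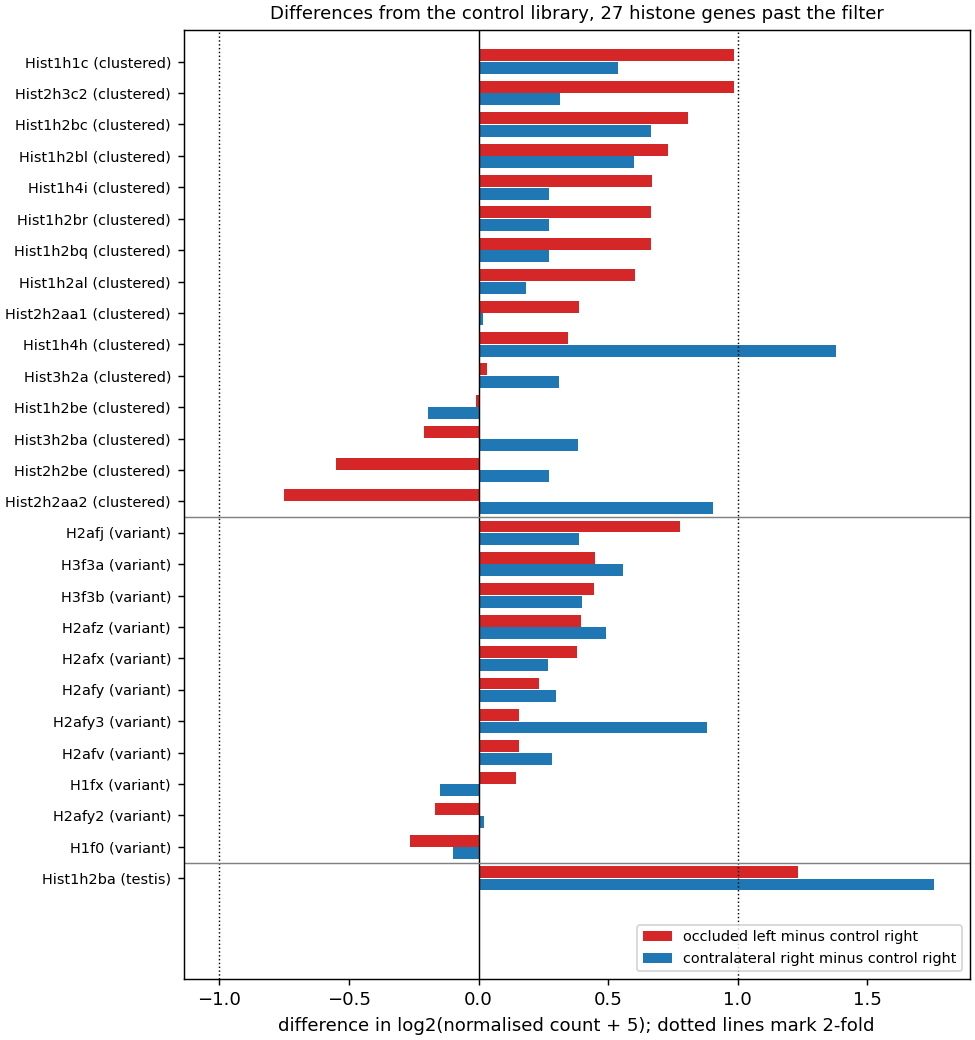
Difference from the control in log2(normalised count + 5) (x axis) for the 27 histone genes past the filter (rows), for the occluded library (red) and the contralateral library (blue), with dotted lines at 2-fold. Both bars share the control library. Hist1h2ba passes the line in both colours and Hist1h4h in blue.

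Variant histone genes also lay mostly above the control, and the genes of H3.3 and H2A.Z were higher in both libraries of the MCAO animals. All 11 met the filter and none was counted at 2-fold in any comparison. Of all genes past the filter, 0.362% to 5.17% were counted, by comparison and direction. A count of none among 11 is near those shares. The median difference from the control was 0.23 in the occluded and 0.30 in the contralateral library. In the occluded library 9 of the 11 lay above 0, beside 7278 of the 14906 genes past the filter. The variant sum had an occluded to control ratio of 1.21 (1.18 to 1.23). For the clustered sum it was 1.43, and 1.25 without Hist1h2bc. Above the control in both were 8 of the 11 variants, 11 of the 15 clustered genes and 36.3% of all genes. H3f3b (chromosome 11, 116021961 to 116026039), which with H3f3a encodes the replacement histone H3.3, had 6105, 8062 and 8304 normalised counts. The control was lowest, and the ratios to it were 1.32 (1.28 to 1.36) for the contralateral and 1.36 (1.31 to 1.41) for the occluded library. H3f3a (chromosome 1, 180802560 to 180813605) had 2460.0, 3620.0 and 3359, ratios of 1.47 (1.40 to 1.55) and 1.37 (1.29 to 1.44). H2afz, a gene of H2A.Z, a variant found at gene starts, had 2042, 2871 and 2684. Its relative H2afv had 1185, 1444 and 1321, the same order of libraries as H2afz and H3f3a.

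H2afx, whose protein is phosphorylated at DNA breaks, had 494, 596 and 645 normalised counts, an occluded to control ratio of 1.31 (1.15 to 1.48). H2afj, an H2A variant gene, differed most of this class in the occluded library, with 295, 388 and 510.5. Its ratio was 1.73 (1.49 to 2.01) to the control and 1.32 (1.15 to 1.51) to the contralateral library. The macroH2A genes did not move alike: H2afy had 2126, 2616 and 2501, whereas H2afy2 had 606, 615 and 539. H2afy3, a transcribed pseudogene in RefSeq, had 17.4, 36.4 and 19.9965, and although its contralateral difference was 0.88 its ratio without the added 5 was 2.09 (1.17 to 3.86). It lies within the span of Pvt1, and H2afy and H2afy2 overlap other genes too.

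The linker variants stood apart from H3.3 and H2A.Z. H1f0 (chromosome 15, 79028212 to 79030504), the gene of H1.0, a linker histone of cells that have stopped dividing, had 3521, 3288 and 2929 normalised counts. It was the 1 variant below the control in both other libraries, by 1.20-fold in the occluded one (1.14 to 1.27) and 1.07-fold in the contralateral one (1.02 to 1.12). H1fx had 376, 339 and 416, and both its intervals against the control included 1.

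Among the testis histone genes, H2afb1 and Hist1h2ba were highest in the contralateral library, and Hist1h2ba was the 1 histone gene past the filter counted as higher in the occluded library than in the control. That count of 1 among 27 is near the 4.12% of all genes past the filter counted as higher. H2afb1, of the H2A.B histones of sperm formation, was listed at 1 in the control and in the occluded library, and had 57.7 normalised counts in the other. Taking 3 reads in each library listed at 1, this was at least 19.8-fold above the control and at least 16.3-fold above the occluded library. Its mean of 19.9 fell just under the filter, while the lowest mean past it was 24.6, of H2afy3. The symbol matches more than 1 RefSeq entry, so no position is given. Hist1h2ba (chromosome 13, 23933725 to 23934156) had 10.7, 47.9 and 31.8, with ratios to the control of 4.497 (2.32 to 9.54) and 2.98 (1.43 to 6.66). Hist1h2aa (chromosome 13, 23934437 to 23934913) had 6.78, 15.1 and 16.5, and both its intervals against the control included 1. The RefSeq gene Gm33516 overlaps both, and without strand information their reads cannot be told apart from its own. The germ cell markers given above summed to 133 in the occluded library, against 140 in the control. Sycp3 held 113 and 110 of these, and the other markers were low in both. On the log2 scale, 4 of the 8 markers were above the control in the occluded library, beside 7278 of the 14906 genes past the filter. Of these markers, Tnp2 and Crisp2 had 1.18 against a listed 1. Prm1, with a ratio of 3.24 (0.777 to 19.0), and Sycp3, with 1.02 (0.771 to 1.35), had intervals that included 1. The part of the germ cell markers in the Hist1h2ba value was not tested.

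**Figure D3:**
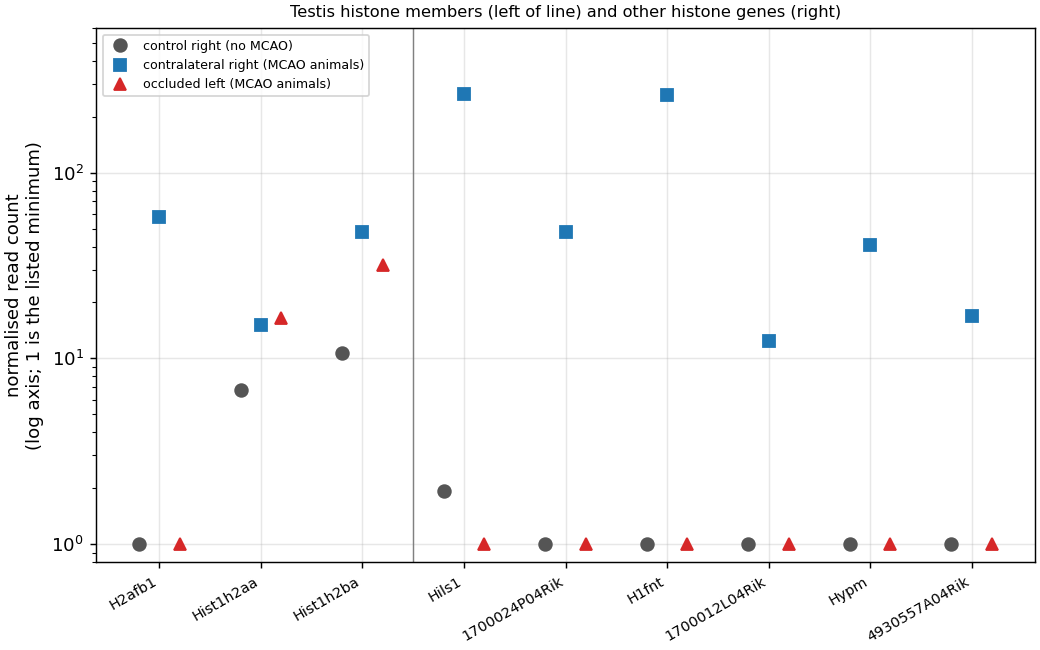
Normalised read counts (y axis, log scale) of the 3 testis histone genes chosen by symbol (left of the line) and 6 other histone genes with different symbols (right; Cenpa is not plotted), in the control (circles), contralateral (squares) and occluded (triangles) libraries. Of the genes plotted, all but Hist1h2aa are highest in the contralateral library.

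A search of RefSeq synonyms, made after values were seen, found 7 further histone genes under other symbols. Of these, 6 were highest in the contralateral library and 5 were listed at 1 in both others. Of all 16610 genes, 665, 47 and 583 were listed at 1 in the control, contralateral and occluded library. The share of all genes with either pattern was not computed. Hils1, a linker histone gene of spermatids, had 1.94, 265 and 1 normalised counts, and H1fnt, the gene of the testis linker histone H1T2, had 1, 261 and 1. The contralateral value was 47.9 for 1700024P04Rik (H2bl1 in RefSeq), 40.8 for Hypm (H2ap), 16.9 for 4930557A04Rik (H2al3) and 12.4 for 1700012L04Rik (H2al1m). Genes of the proteins that pack sperm DNA were also highest in the contralateral library: the protamine genes Prm1 and Prm2 had 2.91, 567 and 9.41 and 5.81, 1647 and 2.35, and the transition protein gene Tnp1 had 2.91, 1079 and 1.18. Of 30 listed spermatid genes 27 were measured, and 22 of them were counted as higher in the contralateral library against the control, beside 5.17% of all genes past the filter. The filter favours this count, since the median over the 27 genes was 4.84, 523 and 2.35, so that many passed through the contralateral library. The seventh gene, Cenpa, which encodes the centromere histone CENP-A, had 21.3, 25.7 and 77.6 and an occluded to control ratio of 3.64 (2.22 to 6.20).

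Against the control, the contralateral hemisphere had 2 of the 27 histone genes past the filter counted as higher, Hist1h2ba and Hist1h4h, and none as lower. Of all genes, 5.17% were counted as higher and 0.362% as lower. The median difference was 0.31 for clustered genes, of which 14 of 15 lay above 0, and 0.30 for variants, 9 of 11. Above 0 were 7368 of the 14906 genes past the filter. The 15 count the identical rows Hist1h2bq and Hist1h2br separately. Hist1h4h (chromosome 13, 23531044 to 23531478), an H4 gene, had 18.4, 55.9 and 24.7 normalised counts, with a ratio of 3.04 (1.79 to 5.37). Hist2h2aa2, at 0.90, lay just under the line with a ratio of 2.04 (1.27 to 3.38). Germ cell markers were higher in the same library, as given above.

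The occluded library, set against the contralateral one, had none of the 27 counted as higher and 2 as lower, Hist1h4h and Hist2h2aa2, where all genes gave 3.18% and 4.96%. Hist1h4h was 2.26-fold lower (1.36 to 3.90) and Hist2h2aa2 3.98-fold lower (2.07 to 8.40). With 25.2 in the control and 12.9 in the occluded library, Hist2h2aa2 passed the filter only through its contralateral value of 51.5. The filter thus favours its count as lower. Both had their highest value in the contralateral library, and the sum of Hist2h2aa1 and Hist2h2aa2 had an occluded to contralateral ratio of 1.15 (0.989 to 1.33). The median was 0.18 for clustered and -0.10 for variant genes. Variant genes summed to 19227, 23875 and 23229, an occluded to contralateral ratio of 0.973 (0.955 to 0.991), and for the clustered sum it was 1.05 (1.00 to 1.10).

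Without a filter, all 34 histone genes gave 1 higher and 1 lower in the occluded library against the control, where 4.95% and 1.78% of the 16610 genes were counted. Against the contralateral library they gave 0 higher and 4 lower, with 3.88% and 8.37% over all genes. The contralateral library against the control gave 4 higher and 1 lower, with 8.52% and 0.674%. The low genes added to these counts were 3, all with a mean under the filter. Hist1h4a, an H4 gene, had 1, 12.4 and 1 normalised counts, at least 4.28-fold above the control in the contralateral library. Hist1h4k, also an H4 gene, had 10.7, 1 and 1.18, at least 4.0-fold under the control there and a ratio of 0.11 (0.0026 to 0.76) in the occluded library, from 1 read. H2afb1 was the third.

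The DNA replication list, most of whose genes are active when replication histones are made, included many more genes past 2-fold in the occluded library. It also holds genes of dividing cells more widely, such as Mki67, Top2a and Cdk1. Of 48 listed genes 46 met the filter, and 19 were counted as higher against the control, none as lower, with a median of 0.61, beside 4.12% and 1.25% of all genes. Tk1 (9.69, 5.32 and 115), Cdc6 (7.75, 8.87 and 51.8) and Mcm10 (13.6, 12.4 and 37.6) passed the filter only through their occluded value. The filter thus favours their counts as higher. With no filter 19 of the 48 were counted as higher, beside 4.95% of all genes. Microglia markers were higher in the same library, with an occluded to control ratio of 2.86 for their sum, and their part in the replication genes was not tested. Against the contralateral library 16 of the replication genes were counted as higher, beside 3.18% of all genes. The contralateral library had 1, Top2a, counted as higher than the control, beside 5.17% of all genes. Mki67, a marker of dividing cells, had 33.9, 58.6 and 395 normalised counts. Rrm2, a subunit of the enzyme that makes deoxynucleotides, had 52.3, 67.4 and 399.9, and Top2a, a topoisomerase gene, had 36.8, 137 and 461. Pcna, the sliding clamp of DNA polymerases, had 1823, 1701 and 2678. These were lowest in 1 of the right hemispheres and highest in the occluded library. The summed list had an occluded to control ratio of 1.51 (1.47 to 1.54) and an occluded to contralateral ratio of 1.48 (1.45 to 1.52), beside 1.43 and 1.05 for the clustered histones.

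**Figure D4:**
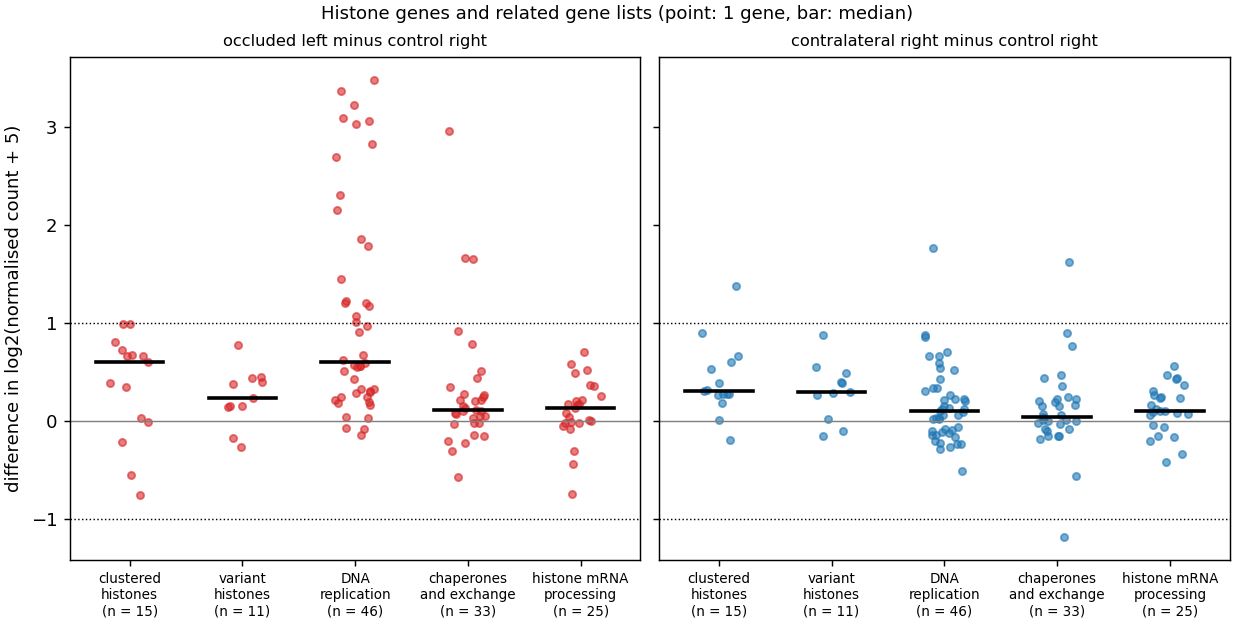
Difference from the control in log2(normalised count + 5) (y axis) for the occluded library (left) and the contralateral library (right), by gene list (x axis, genes past the filter), with 1 point per gene, the median as a bar and dotted lines at 2-fold. The replication list reaches 3.48 (Top2a) in the occluded library and clustered histones 0.99. Both panels share the control library.

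Histone chaperones, which carry histones to and from DNA, differed in single genes. The list of 33 genes, all past the filter, also held factors that exchange histones and the histone gene Cenpa. In it, 3 genes were counted as higher in the occluded library against the control and none as lower. Of all genes, 4.12% were counted as higher and 1.25% as lower. The median of the 33 was 0.12. Chaf1b, a subunit of the assembly factor CAF-1, had 5.81, 15.1 and 78.8 normalised counts, and Asf1b, a chaperone of H3 and H4, had 32.0, 46.1 and 112. Chaf1b passed the filter only through its occluded value, so the filter favours its count as higher. Cenpa, a histone gene and not a chaperone gene, was the third gene counted. Nasp, a histone chaperone with a known testis form, was highest in the contralateral library, with 428, 1325 and 614 and a ratio of 3.09 to the control (2.78 to 3.45). Hjurp, the chaperone of CENP-A, was lowest there, with 129, 54.1 and 139.

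Genes for histone mRNA synthesis, processing and decay moved little. Of 27 listed 25 were measured, and none was counted at 2-fold in any comparison. The shares of all genes counted were 0.362% to 5.17%, by comparison and direction, so none among 25 is near them. The median difference from the control was 0.13 in the occluded and 0.10 in the contralateral library. Slbp, whose product binds the stem-loop of replication histone mRNA, had 558, 724 and 632 normalised counts. Npat, an activator of the clustered genes, had 512, 405 and 413, highest in the control. Snrpg, a gene of the Sm proteins of small nuclear RNPs, had 321, 477 and 527, the largest positive difference of the list in the occluded library. Hinfp, a factor of H4 promoters, had the most negative one, with 143, 129 and 83.5 and a ratio of 0.583 (0.433 to 0.778).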

How the data were processed

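The deposited table holds 1 column for each of the 3 libraries. Its values are a signal that the authors made, gene read counts scaled by library size factors, and anything under 1 is listed as 1. CASAVA 1.8, HISAT2 2.0.11, Partek 6.6, R 3.3.1 and DESeq2, with the build mm10, are named without roles per the submitters' processing notes. Strand handling and the treatment of reads that fit several copies are not given in the sources used here. What 1 read is worth was recovered from the steps between low values as 0.969, 0.887 and 1.18 normalised counts (control, contralateral, occluded), and 99.9% of values came out whole to 0.1 read in each library. Every gene reached 10.6 in at least 1 library.

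Library columns were assigned by the description field of the labels. Differences are of log2(value + 5), filtered at an average of 20 over all libraries and counted at 2-fold. A library listed at 1 was taken as 3 reads for a bound. With 1 library per group there was no test. Alternatives were a pseudocount of 1, no filter, an average of 100, scaling by total reads or by the upper quartile and, chosen after seeing the data, a filter on the compared libraries and identical rows counted once. The calculations were tested on simulated data. The members and gene lists were chosen with earlier results of these data known. The rule for named genes took every variant and testis gene, every clustered linker histone, the 10 clustered genes with the highest mean count, up to 6 of the highest and of the lowest differences per comparison past the filter, and up to 6 of each list with some set genes. Hist1h4a, Hist1h4k, Hist2h2ac, Hist2h3c1 and the genes found by synonym fall outside it and were chosen after their values were seen. RefSeq (GRCm38.p6) matched 34 of 34 genes by symbol or synonym, 33 to 1 entry. Values are not corrected for gene length, so a gene with more reads than another is not shown to have more mRNA. Python 3.11.15, pandas 2.3.3 and scipy 1.17.1 were used.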

Additional observations from a re-analysis of the deposited data

How the results depend on the processing

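No paired analysis was possible because each group had 1 library, and for the same reason no library could be left out. Clustered and variant medians kept their sign under every alternative run. The clustered median of occluded against control ran from 0.37 without a filter to 0.67 with a filter on the compared libraries. Counts at 2-fold were small and moved with genes near the line. Clustered genes higher in the occluded library against the control went from 0 to 2 with a pseudocount of 1 and with upper-quartile scaling (Hist1h1c and Hist2h3c2), and to 1 with scaling by total reads (Hist1h1c). For contralateral against control, a pseudocount of 1 gave 2 clustered genes and 1 variant gene as higher, since Hist2h2aa2 and H2afy3 crossed. Both of these passed the filter only through their contralateral value. Removing the filter gave 1 clustered gene lower in occluded against control, and for contralateral against control 2 clustered genes higher and 1 lower. It also gave 2 testis genes higher for contralateral against control and 1 lower for occluded against contralateral. A filter on the compared libraries gave the same testis counts of 2 and 1, with a testis median of -1.96 for occluded against contralateral, where it was otherwise -0.53. At an average of 100, fewer genes were tested: clustered genes lower in occluded against contralateral went from 2 to 0, those higher in contralateral against control from 1 to 0, and the testis class had no gene left. No named gene counted at 2-fold changed sign. The near-zero difference of Hist1h2be between occluded and control did under both scalings. Scaling moved single genes by at most 0.04. Low genes such as Hist1h1e, Hist1h4k and Hist1h2aa rest on few reads.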
